A study of Mus musculus with 48 samples.

Results

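Transcript levels of the Dlk1-Dio3 imprinted locus were examined in RNA sequencing libraries from punches of the mouse amygdala. The 8 genes examined were selected by symbol and mapped to the gene IDs of the deposited table, in which they are 8 of 52636 gene IDs. Of these, 5 are noncoding and transcribed from the maternal chromosome: the long RNAs *Meg3*, *Rian* and *Mirg* and the microRNA-class genes *Mir487b* and *Gm27379*. The other 3, *Dlk1*, *Rtl1* and *Dio3*, are protein-coding and transcribed from the paternal chromosome. The alleles are background knowledge, since the libraries do not separate the parental chromosomes. *Mir487b* and *Gm27379* were picked from earlier results in which they were high in the Brd1+/- vehicle libraries, so that every comparison with those libraries is a description here. Calls in those comparisons are counted beside the share over all genes, with no p-value, and nothing is read from them.

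The 48 libraries came from female mice of the strain labelled C57BL/6NTac-Brd1, 8 to 11 weeks old, in 6 groups of 8. WT mice had both copies of Brd1, and Brd1+/- mice were heterozygous for a targeted deletion in this gene, which encodes a bromodomain protein of histone acetylation complexes. Both genotypes received injections of saline (vehicle), of the tricyclic drug imipramine (IMN) at 10 mg/kg, or of fluoxetine (FLX), which blocks serotonin reuptake, at 5 mg/kg. Per the study's methods, all mice had passed behavioural tests that ended with forced swimming shortly before the brains were taken. The deletion is a single mouse line, and the labels give no litter for a library, so p-values measure the spread between these mice. The sample codes of the vehicle mice and those of the drug mice fell in separate ranges, so whatever handling followed the codes cannot be told apart from the drugs.

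An imprinted locus is one whose genes are read from only 1 parental chromosome, as set by DNA methylation laid down in the germ line. In the Dlk1-Dio3 locus a methylated control region lies between *Dlk1* and *Meg3*. On the maternal chromosome it is unmethylated, and a long stretch of noncoding RNA is transcribed from *Meg3* through *Rian* to *Mirg*, with small nucleolar RNAs and a large cluster of microRNAs carried in it. On the paternal chromosome the region is methylated, the noncoding stretch is silent and the protein-coding genes are active. *Meg3* and its neighbours are abundant nuclear RNAs of neurons. DLK1 is a transmembrane relative of the Notch ligands, RTL1 is a protein derived from a retrotransposon and DIO3 is the deiodinase that inactivates thyroid hormone.

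Levels were in TPM, which scales a gene's reads by its length and each library to a fixed sum, so levels can be compared between genes but depth is unknown and no counting interval was possible. The number of genes above 0 ran from 23420 to 27252 per library. Its group mean was highest for Brd1+/- vehicle, 26271 ± 802 (SD, n = 8), against 24666 to 25173 for the other 5 groups. Brd1, the targeted gene, was at 23.4 to 26 TPM on average in the Brd1+/- groups and at 32.9 to 36.9 TPM in the WT groups. All 12 neuronal markers were above 0 in all 48 libraries, but the punches differed in what else they held: the summed level of 12 markers of striatal projection neurons ran from 249 to 12289 TPM and that of 18 hypothalamic and subpallial markers from 22.6 to 10831 TPM. In bulk tissue, fewer cells of a type and less RNA per cell cannot be told apart.

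The microRNA sequences of the locus are shown first, because the values that stand out fall on microRNA-class genes. Of the 67 genes of this class in the interval, 61 matched a RefSeq entry (GRCm38.p6), with 114 mature sequences and 104 distinct seeds, the bases 2 to 8 that pair with a target. *Mir487b* lies at chr12:109727333-109727414 on the plus strand. Its hairpin is printed with the mature 5p arm in capitals, and the mature sequences below it have their seeds in capitals.
Mir487b hairpin: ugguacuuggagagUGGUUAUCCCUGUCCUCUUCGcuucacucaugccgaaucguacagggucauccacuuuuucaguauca
miR-487b-5p: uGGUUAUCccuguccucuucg
miR-667-3p: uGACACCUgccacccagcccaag
miR-376c-5p: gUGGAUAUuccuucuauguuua
miR-376b-5p: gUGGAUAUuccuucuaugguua
miR-300-3p: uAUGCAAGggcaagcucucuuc
miR-494-3p: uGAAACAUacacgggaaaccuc
miR-494-5p: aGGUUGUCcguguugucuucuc
miR-410-5p: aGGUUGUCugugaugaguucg
miR-376c-5p and miR-376b-5p shared a seed, as did miR-494-5p and miR-410-5p, although the genes of the latter pair fell on different sides of the *Mirg* start. Among all mature sequences of the locus 9 seeds were shared by differently named microRNAs, and the seed of miR-487b-5p was shared with none of the 114 sequences. The 3p arm of *Mir487b* was not compared, because the table used holds only its 5p entry.

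*Gm27379* lies at chr12:109728821-109728943 on the plus strand. It is annotated as a microRNA gene of 123 bases, had no mature entry in the RefSeq table, and its annotated transcript (GENCODE M21, GRCm38) is shown whole.
Gm27379 transcript: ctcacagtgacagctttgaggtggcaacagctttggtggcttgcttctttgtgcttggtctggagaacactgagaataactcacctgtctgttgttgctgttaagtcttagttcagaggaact
Neither gene shares a base with an exon of a long member. *Mir487b* ended 2349 bases and *Gm27379* 820 bases before the start of *Mirg* in GENCODE M21, which is used throughout for positions. The RefSeq window around the *Mirg* start lies further on, at chr12:109734731-109735030, so where *Mirg* begins depends on the annotation. A TPM of such a gene comes from library fragments that overlap it and is a measure of longer RNA across it, not of the mature microRNA, and few reads give a large TPM because the gene is short.

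*Mir487b* was above 0 in all 8 Brd1+/- vehicle libraries and was close to absent from the rest. In Brd1+/- vehicle the lowest level was 1.09 TPM, the median 4.28 TPM and the highest 8.58 TPM, and the mean was 4.15 ± 2.77 TPM (SD, n = 8). In WT vehicle it was listed at 0 in 7 libraries and at 0.197 TPM in the other. All 8 Brd1+/- IMN and all 8 WT FLX libraries listed it at 0. WT IMN had 5 libraries at 0 and a highest level of 3.38 TPM, and Brd1+/- FLX had 5 at 0 and a highest level of 1.95 TPM. The Brd1+/- vehicle libraries thus did not overlap those of WT vehicle, Brd1+/- IMN or WT FLX, but overlapped those of WT IMN and Brd1+/- FLX.

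*Gm27379* had the same order of groups at its head. It ranged from 1.42 to 7.61 TPM in Brd1+/- vehicle, with a median of 5.30 TPM and a mean of 4.56 ± 2.1 TPM (SD, n = 8). In WT vehicle 6 of 8 libraries listed it at 0 and the highest level was 0.645 TPM. It was listed at 0 in 6 of 8 libraries each of WT IMN and WT FLX and in 7 of 8 each of Brd1+/- IMN and Brd1+/- FLX. The highest levels in these groups were 2.90 TPM in WT IMN, 2.60 TPM in Brd1+/- FLX, 2.45 TPM in WT FLX and 0.208 TPM in Brd1+/- IMN. No WT vehicle or Brd1+/- IMN library reached the lowest Brd1+/- vehicle level, while single libraries of the other 3 groups exceeded it.

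**Figure D1:**
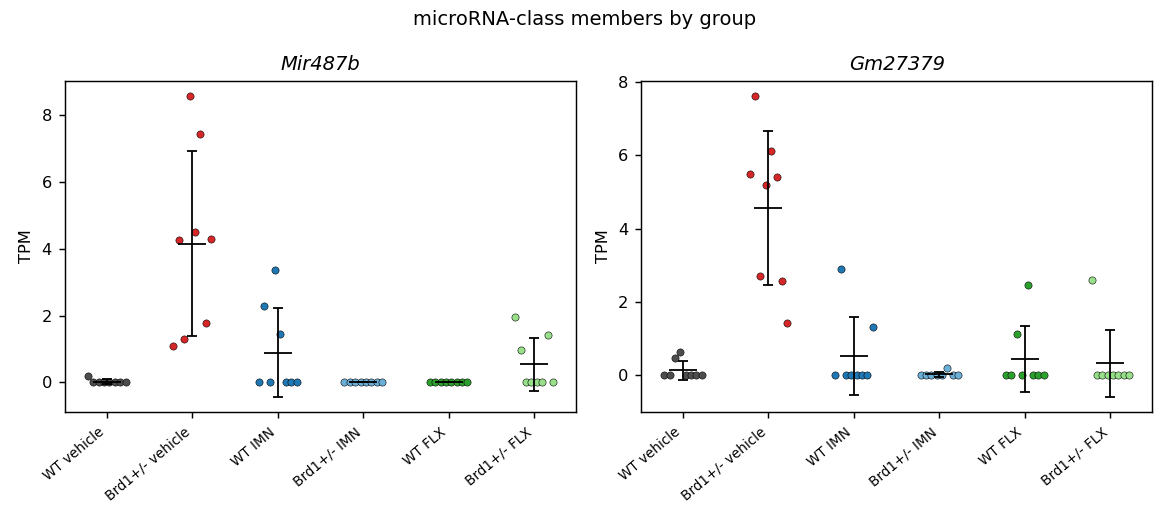
Level of *Mir487b* (left) and *Gm27379* (right) in TPM on the y axis, for each of the 8 libraries (points) of the 6 groups on the x axis, with the mean and SD in black. All 8 Brd1+/- vehicle libraries lie above 0, from 1.09 TPM for *Mir487b* and from 1.42 TPM for *Gm27379*, and most other libraries lie at 0.

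On the log2(TPM + 0.1) scale, which understates changes at low levels, the difference between Brd1+/- and WT vehicle was 4.89 ± 0.42 (SE) for *Mir487b* and 4.70 ± 0.50 (SE) for *Gm27379*. These were the 2 members called in that comparison (limma, Benjamini-Hochberg adjusted p under 0.05 over all 24279 genes tested), of 8 tested, against 0.708% of all genes. Both were also the only members called, and lower, against Brd1+/- vehicle in Brd1+/- IMN and in Brd1+/- FLX, where 0.776% and 0.731% of all genes were called, and in the interactions of genotype with IMN (0.536%) and with FLX (1.71%). For FLX the call of *Mir487b* was lost when 0.01 was added in place of 0.1, with a minimum of 1 TPM, with quantile normalization, with the replicate number of the labels as a block (the replicate block) and with a term for the sample code range, and both calls were lost with values of 0 taken as missing. That last setting covered only genes with a median of at least 1 TPM in the fit. Those 5 comparisons share the Brd1+/- vehicle libraries that led to the choice of both genes. In the 6 comparisons without these libraries neither gene passed the minimum level for a test.

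The genes around *Mir487b* and *Gm27379* were examined next. The interval from the start of *Dlk1* to the end of *Dio3*, chr12:109452823-110281097 on GRCm38, held 118 gene IDs of the table, among them 67 microRNA, 23 small nucleolar RNA and 12 lincRNA genes, and 101 of them were above 0 in at least 1 library. Of 69 tested between the vehicle groups 10 were called, all higher in Brd1+/- (0.688% of all genes were called higher), and 9 of the 10 lay in the 68047 bases between the end of *Rian* and the start of *Mirg*. The other, *Gm27596*, lies in an intron of *Meg3*. None was called of the genes tested within *Rian* (7 that share its exonic bases and 10 in its introns), within *Mirg* (9 and 5) or among the 6 long members, which does not show equal levels. The minimum for a test favoured this direction: all 17 tested genes between *Rian* and *Mirg* reached 0.1 TPM in more Brd1+/- than WT vehicle libraries, and none reached it in all 8 WT vehicle libraries, so that they were tested through the group where they were high, and the counts are no support for the pattern.

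The stretch between *Rian* and *Mirg* held 42 gene IDs, of which 30 are microRNA and 10 small nucleolar RNA genes. The grouping by position was made after the values were seen and is a description. The highest group mean was in Brd1+/- vehicle for 35 of the 42, in another group for 3, and 4 were listed at 0 in all libraries. In the whole interval, these 42 included, it was in Brd1+/- vehicle for 52 of the 101 genes above 0. Brd1+/- vehicle also listed the most genes above 0 on average, and the share over all genes was not computed. The counts of genes given here are therefore not read as particular to the stretch. A Brd1+/- vehicle library listed 20 to 28 of the 42 above 0, while the libraries of the other groups listed 2 to 10. The length-weighted mean level of the 42 genes was 1.27 ± 0.512 TPM (SD, n = 8) in Brd1+/- vehicle, with a lowest library of 0.624 TPM. It was 0.0687 ± 0.0335 TPM in WT vehicle, 0.124 ± 0.0471 TPM in WT IMN, 0.0914 ± 0.0342 TPM in WT FLX, 0.0527 ± 0.0339 TPM in Brd1+/- IMN and 0.0469 ± 0.0195 TPM in Brd1+/- FLX (SD, n = 8 each). No library of these 5 groups exceeded 0.224 TPM, so the Brd1+/- vehicle libraries lay apart from all others. The mean includes genes that did not reach the minimum for a test, but 80% of its 16527 exonic bases belong to *Gm37899* and *B830012L14Rik*. Without these the other 40 genes were at 1.64 ± 0.751 TPM (SD, n = 8) in Brd1+/- vehicle, with a lowest library of 0.854 TPM, and no library of another group exceeded 0.366 TPM.

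The long genes that dominate the length-weighted mean were also highest in Brd1+/- vehicle. *Gm37899* (8717 bases) had 0.648 to 2.18 TPM in Brd1+/- vehicle, with a median of 1.12 TPM, and 0.008 to 0.0537 TPM in WT vehicle, and its log2(TPM + 0.1) difference was 3.26 ± 0.23 (SE). *B830012L14Rik* (4505 exonic bases) had 0.364 to 2.09 TPM in Brd1+/- vehicle, with a median of 1.15 TPM, and 0 to 0.172 TPM in WT vehicle, with a difference of 2.77 ± 0.33 (SE). The remaining genes called between the vehicle groups were *Gm44322* (6.57 TPM on average in Brd1+/- vehicle and 0.702 TPM in WT vehicle), *Mir300* (3.31 and 0.296 TPM), *Gm25252* (2.75 and 0.320 TPM), *Mir376c* (2.37 and 0.197 TPM), *Gm27596* (2.03 and 0.373 TPM) and *Mir667* (1.71 TPM and listed at 0 in all 8 libraries). *B830012L14Rik*, *Gm27596* and, below, *Mir410* and *Gm26945* were named after their values were seen.

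Within the stretch the Brd1+/- vehicle level was higher toward *Mirg*. Its length-weighted mean was 1.07 TPM over the 12 genes before *B830012L14Rik*, 1.22 TPM over the 16 genes from there to *Mir543* and 3.03 TPM over the 14 genes from *Mir495* to *Mir544*. In WT vehicle the same 3 runs had 0.0232, 0.105 and 0.254 TPM, and in each of the other 4 groups the run next to *Mirg* was likewise the highest. These runs were set after the values were seen, and the first and second consist mostly of the bases of *Gm37899* and of *B830012L14Rik*.

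**Figure D2:**
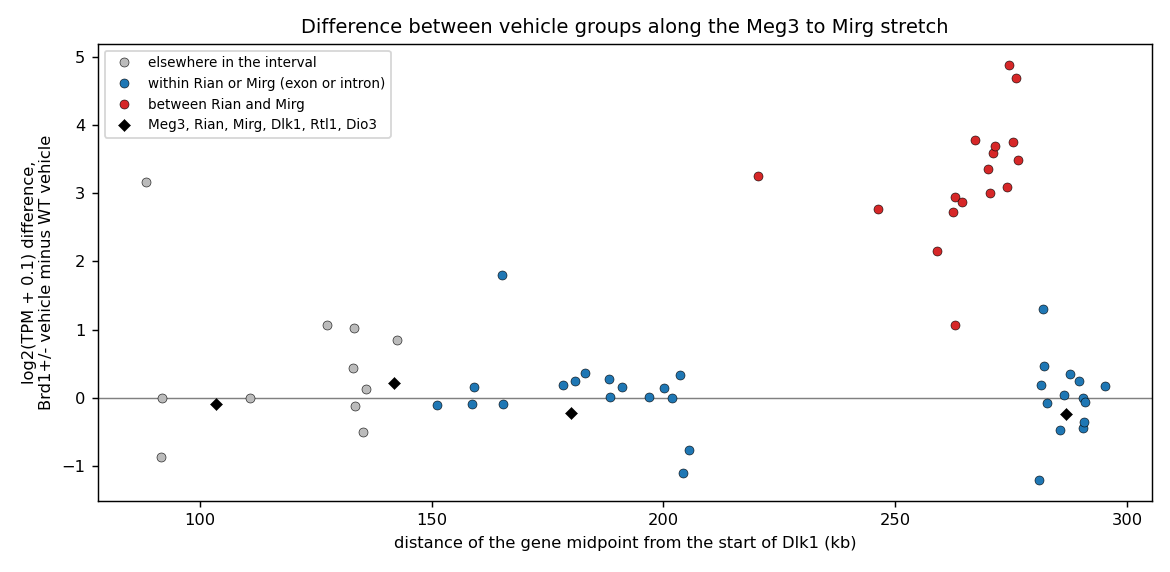
Difference on the log2(TPM + 0.1) scale between Brd1+/- vehicle and WT vehicle (y axis) for each tested gene between *Meg3* and *Mirg*, by the distance of its midpoint from the start of *Dlk1* in kb (x axis). Genes between *Rian* and *Mirg* (red), which reached the minimum for a test through the Brd1+/- libraries, lie between 1.07 and 4.89. The long members shown (black diamonds) lie near 0. Genes within *Rian* or *Mirg* (blue) lie between −1.21 and 1.80, which overlaps the red range. *Gm27596*, in an intron of *Meg3*, lies at 3.17.

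Immediately beyond the GENCODE start of *Mirg* the microRNA genes showed no such order. The 9 genes that share exonic bases with *Mirg* had a median difference of 0.17 and the 5 in its introns of −0.01. The 5 intronic genes, whose reads do not come from annotated exons of *Mirg*, had a length-weighted mean of 7.9 ± 2.29 TPM (SD, n = 8) in Brd1+/- vehicle and 8.17 ± 3.29 TPM in WT vehicle. *Mir410*, which shares its 5p seed with *Mir494*, was at 5.72 TPM in Brd1+/- vehicle and 6.72 TPM in WT vehicle, while *Mir494* was at 3.07 ± 2.05 TPM (SD, n = 8) in Brd1+/- vehicle and 0.539 ± 0.77 TPM in WT vehicle, a difference that was not called. The 10 genes in introns of *Rian* were likewise at 6.55 ± 1.66 and 6.45 ± 1.79 TPM (SD, n = 8 each).

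Against the drug groups the interval gave 9 calls, all lower in IMN than in vehicle among Brd1+/- mice, of 63 tested (0.76% of all genes were called lower), and 9, all lower in FLX, of 65 tested (0.719%). The interactions gave 5 of 75 with IMN and 6 of 73 with FLX, all lower (0.532% and 1.53%). All of the genes lower under the drugs lay between *Rian* and *Mirg* except *Gm27596*, in the intron of *Meg3*, and, under IMN only, *Gm26945* in an intron of *Rian*, with means of 3.34 TPM in IMN and 5.88 TPM in vehicle and a difference of −0.79 ± 0.18 (SE). *Mir494* was among the genes lower in FLX, with a mean of 0.109 TPM. In the 6 comparisons without Brd1+/- vehicle libraries, 0 of the 50 to 53 interval genes tested were called in limma, where 0 to 8 had an unadjusted p under 0.05. Only 0 to 2 of these were genes between *Rian* and *Mirg*, the others there being too low for a test, so the absence of calls says little about that stretch.

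**Figure D3:**
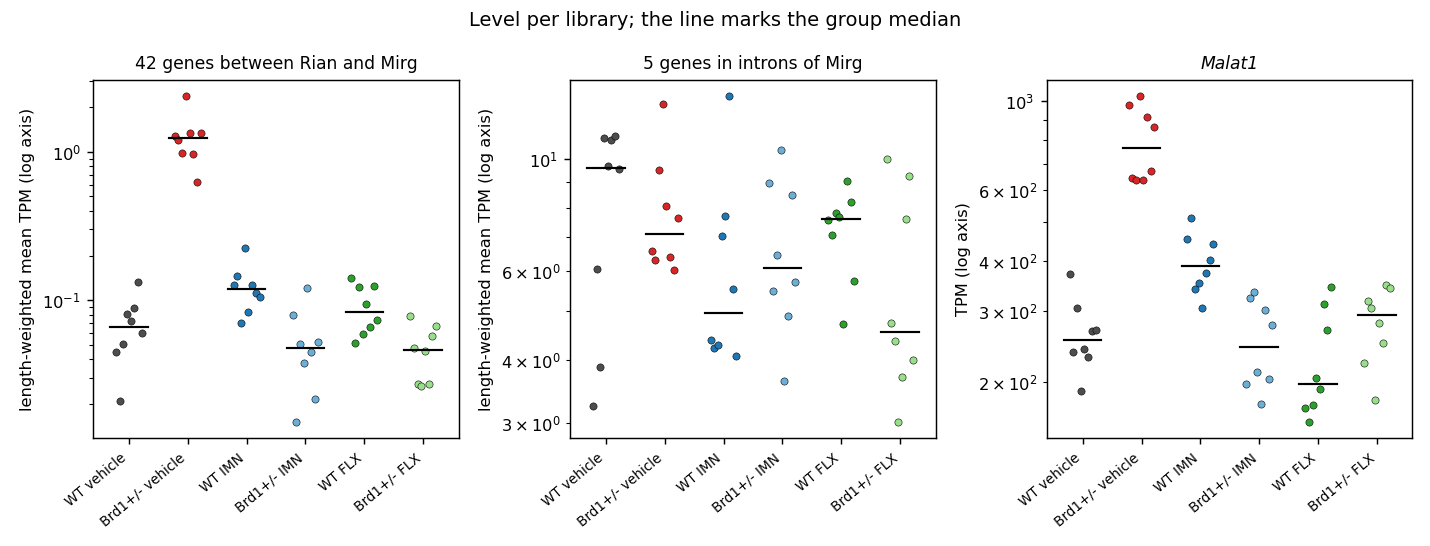
Length-weighted mean TPM of the 42 genes between *Rian* and *Mirg* (left) and of the 5 genes in introns of *Mirg* (middle), and TPM of *Malat1* (right), each on a log y axis, for the 8 libraries (points) of each group on the x axis, with the group median as a line. The Brd1+/- vehicle libraries are apart from all others on the left and on the right, at or above 0.624 TPM and 637 TPM, but not in the middle.

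Other measures also differed between the vehicle groups. *Malat1*, an abundant nuclear noncoding RNA from another chromosome, was at 797 ± 168 TPM (SD, n = 8) in Brd1+/- vehicle, from 637 to 1031 TPM, and no library of another group exceeded 513 TPM. It was the only one of 11 other nuclear noncoding RNAs called between the vehicle groups. By class, the share of genes called there was 5.99% for genes of class TEC (provisional gene models that await experimental proof), to which *Gm37899* belongs, 2.23% for microRNA genes and 0.0851% for protein-coding genes. Brd1+/- vehicle libraries also listed the most genes above 0. The summed level of 12 oligodendrocyte markers, none of which was at 0 in any library, had its median at 6123 TPM there and at 2138 TPM in WT vehicle. Their ranges overlapped (2548 to 17709 and 746 to 12167 TPM). The highest group median of this sum was 6331 TPM, in WT FLX. The part of these in the pattern was not tested. Of 13 genes of microRNA processing such as *Drosha*, *Dgcr8* and *Dicer1*, 0 were called in any of the 11 comparisons, and in the vehicle groups their median difference was −0.02 against 0.03 for all genes.

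How reads were assigned to a strand limits these values. All 6 microRNA genes on the plus strand inside the exon of *Rtl1*, which is on the minus strand, were listed at 0 in all 48 libraries, among them *Mir127* and *Mir136*. Between *Rian* and *Mirg*, where a short plus-strand gene lies within a longer minus-strand one, the minus-strand gene carried the level: *Gm25252* was above 0 in 16 libraries and *Mir376a* in 1, *Gm44322* in 20 and *Mir539* in 2, and *Gm25750* in 11 and *Mir380* in 1. Whether counting used the strand of reads is not stated in the sources used here, so reads of such pairs cannot be told apart.

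The long noncoding members were high in every library. *Meg3* was at 1066 ± 267 TPM (SD, n = 48), *Rian* at 461 ± 82.5 TPM and *Mirg* at 74.9 ± 19.9 TPM, and none was at 0 in any library. This order held in each of the 48 libraries, in which *Meg3* was 1.71 to 2.83 times *Rian* and *Rian* 4.17 to 10.4 times *Mirg*. The levels fell along the direction of transcription.

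*Meg3*, with which transcription of the maternal stretch begins, was highest on average in WT vehicle at 1131 ± 361 TPM (SD, n = 8; lowest 487, median 1300, highest 1456). WT FLX followed at 1119 ± 212 TPM (782, 1102, 1449), Brd1+/- IMN at 1103 ± 249 TPM (760, 1098, 1540) and WT IMN at 1046 ± 270 TPM (669, 1051, 1433). Brd1+/- vehicle at 1026 ± 261 TPM (685, 1054, 1400) and Brd1+/- FLX at 968 ± 280 TPM (584, 949, 1436) were last. All 6 ranges overlapped, and neighbours in this order differed by less than their SDs.

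*Rian*, the host of a run of small nucleolar RNAs, was at 490 ± 57.7 TPM in WT FLX (SD, n = 8; median 507, highest 576), 484 ± 113 TPM in WT vehicle (533, 606) and 483 ± 79.2 TPM in Brd1+/- IMN (484, 616). It was at 456 ± 75.8 TPM in WT IMN (427, 577), 440 ± 84.9 TPM in Brd1+/- FLX (428, 582) and 409 ± 69.6 TPM in Brd1+/- vehicle (426, 494). The lowest library of all, in WT vehicle, was at 274 TPM. The lowest mean of *Rian* was thus in the group with the highest level between *Rian* and *Mirg*, but the groups overlapped and neighbours differed by less than their SDs.

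*Mirg*, the host of the distal microRNAs, was highest in WT FLX at 87.9 ± 17.9 TPM (SD, n = 8; lowest 62, median 88.1). WT IMN (78.5 ± 20.3 TPM), WT vehicle (78.2 ± 20.6 TPM) and Brd1+/- IMN (75 ± 25.4 TPM) were in between. Brd1+/- vehicle was at 65.6 ± 16.3 TPM (lowest 45.4, median 68.8) and Brd1+/- FLX at 64.5 ± 12.6 TPM (45.1, 62.4). The difference between Brd1+/- and WT under FLX was −0.44 ± 0.14 on the log2 scale (SE, n = 8 per group, 95% interval −0.74 to −0.15), with an unadjusted p of 0.00524 and a limma adjusted p of 0.112, so it was not called.

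**Figure D4:**
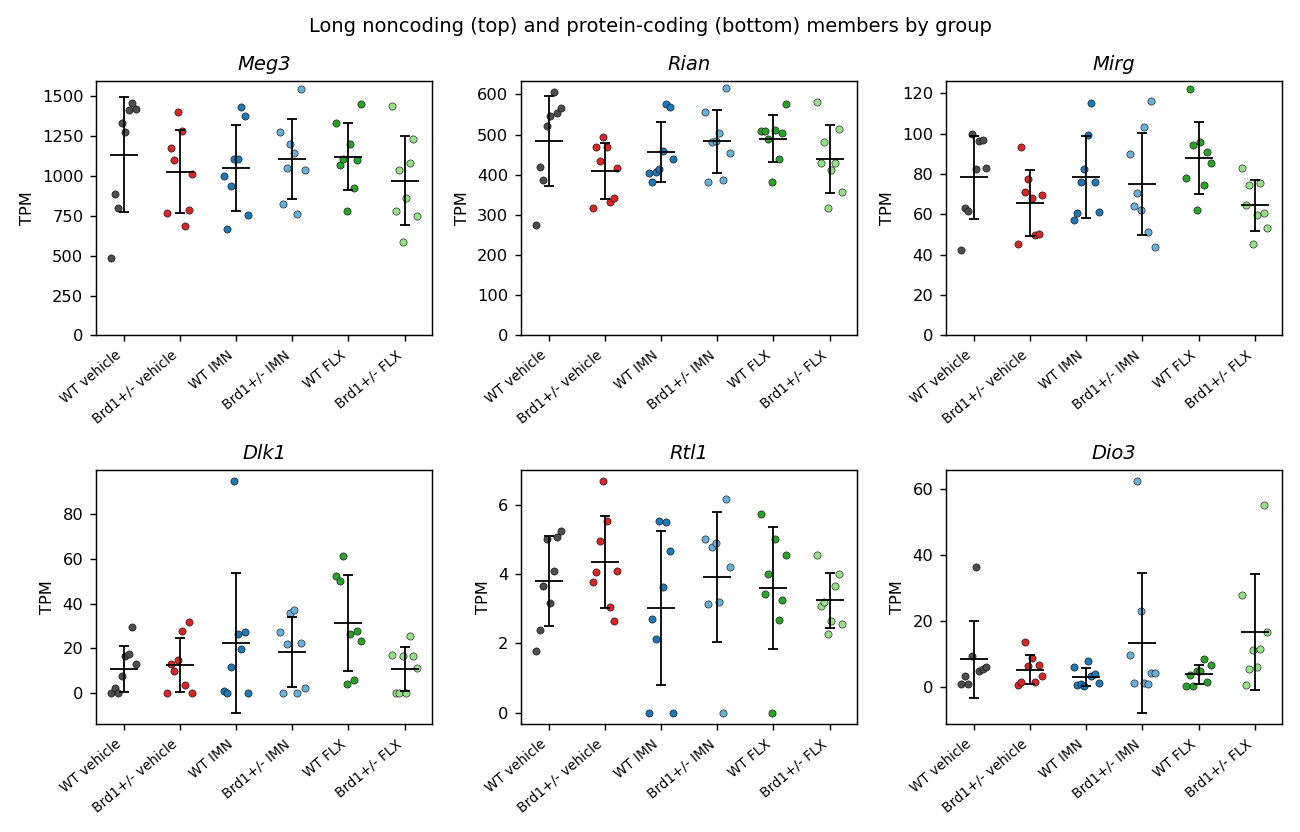
Level in TPM (y axes, separate scales) of the 3 long noncoding members (top) and the 3 protein-coding members (bottom) in each of the 8 libraries (points) of the 6 groups on the x axis, with mean and SD in black. The noncoding members are above 0 in all libraries and the groups overlap, while *Dlk1* and *Rtl1* are listed at 0 in 11 and 4 libraries and *Dio3* has single libraries of up to 62.3 TPM.

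In the 6 comparisons free of the Brd1+/- vehicle libraries, which are genotype within IMN and within FLX, each drug against vehicle in WT mice, and FLX against IMN in each genotype, *Meg3*, *Rian* and *Mirg* gave 18 tests and 0 calls in limma. Their log2 differences lay between −0.44 and 0.19, with a lowest adjusted p of 0.112, and 1 of the 18 had an unadjusted p under 0.05. The background of called genes was 0.017% and 1.54% for genotype within IMN and FLX, 0% and 0.335% for IMN and FLX against vehicle in WT, and 0% for FLX against IMN in both genotypes. The shares rested on single libraries: without WT FLX replicate 7 the number of genes called fell from 364 to 70 for genotype within FLX and from 79 to 1 for FLX against vehicle in WT, and without WT vehicle replicate 1 the latter was 956. In the 3 comparisons with no call in limma, 4.58%, 4.78% and 2.99% of genes had an unadjusted p under 0.05. The 95% intervals bounded the ratio of group levels between 0.66 and 1.40 for *Meg3*, 0.75 and 1.28 for *Rian* and 0.60 and 1.47 for *Mirg* over the 6 comparisons. These bounds are the widest of the 6 comparisons and not a limit of detection.

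The long noncoding members rose and fell together from mouse to mouse. After subtraction of group means on the log2(TPM + 0.1) scale, Pearson's r over the 48 libraries was 0.95 for *Meg3* and *Rian*, 0.80 for *Rian* and *Mirg* and 0.77 for *Meg3* and *Mirg*. *Mir487b* and *Gm27379* did not follow them, with r between −0.07 and 0.09 against the 3 long RNAs and 0.26 with each other. The libraries share a scaling to a fixed sum and differ in the tissue of the punch, so these values are descriptions. *Meg3* and *Rian* were also positively related to the summed neuronal markers (r = 0.42 and 0.47) and negatively to the striatal markers (r = −0.58 and −0.50).

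Since *Rian* and *Mirg* are transcribed downstream of *Meg3*, the window around the annotated *Meg3* start is shown (RefSeq, GRCm38.p6, chr12:109540746-109541045, plus strand, 250 bases before the start and 50 after). The capitals mark TGACGTCA, the cyclic AMP response element, searched on both strands, of which the letters are their own reverse complement.
Meg3 promoter: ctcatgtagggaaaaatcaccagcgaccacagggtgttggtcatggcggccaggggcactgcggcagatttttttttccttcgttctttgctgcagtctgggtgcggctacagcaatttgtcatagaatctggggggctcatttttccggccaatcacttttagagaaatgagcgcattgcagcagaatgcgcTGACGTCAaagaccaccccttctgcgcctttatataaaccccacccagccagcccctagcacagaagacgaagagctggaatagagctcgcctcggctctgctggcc
The motif began 57 bases before the start. It was found in 1.79% of the 32851 windows of the same length and in none of the windows of *Dlk1*, *Rian*, *Mirg* and *Dio3* or in a second window of *Meg3*. The windows of *Dio3* and *Meg3* held 25 and 13 CG pairs and that of *Rian* 0, against a median of 7.

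The protein-coding members were much lower and more variable. Over the 48 libraries *Dlk1* was at 17.8 ± 18.9 TPM (SD, n = 48; median 15.7), *Dio3* at 8.38 ± 12.8 TPM (median 4.77) and *Rtl1* at 3.66 ± 1.59 TPM (median 3.73). A value of 0 may be a failed estimate rather than absence, because some other genes with a clear median level were listed at 0 too. Examples were *Junb*, with a median of 24.5 TPM, in 23 libraries and *Rims1*, with a median of 16.8 TPM, in 14. Such genes were rare: of 11325 genes with a median of at least 10 TPM, 53 were listed at 0 in a library. *Dlk1* was listed at 0 in 11 libraries and *Rtl1* in 4, with a lowest other level of 0.887 and 1.77 TPM, and *Dio3* was never at 0.

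*Dlk1*, whose protein is best known from precursor cells and neuroendocrine tissue, was listed at 0 in 2 libraries each of WT vehicle, Brd1+/- vehicle, WT IMN and Brd1+/- IMN, in 3 of Brd1+/- FLX and in none of WT FLX. The highest level was 29.6 TPM in WT vehicle (median 10.3), 32 TPM in Brd1+/- vehicle (median 11.5), 94.7 TPM in WT IMN (median 15.6) and 37.3 TPM in Brd1+/- IMN (median 22.4). WT FLX ran from 4.18 to 61.4 TPM (median 27.1) and Brd1+/- FLX from 0 to 25.6 TPM (median 13.9). All group ranges overlapped.

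Under FLX the *Dlk1* difference between Brd1+/- and WT was −3.20 ± 1.33 on the log2(TPM + 0.1) scale (SE, n = 8 per group), with an unadjusted p of 0.0280 and a limma adjusted p of 0.232. In WT mice FLX against vehicle gave 2.69 ± 1.18 (SE, n = 8 per group) with a limma adjusted p of 0.260. Neither was called, and both rested on the libraries at 0: with these taken as missing, an alternative added after the data were seen, the differences were −0.42 ± 0.60 (13 libraries) and 0.98 ± 0.66 (14 libraries), with adjusted p-values of 0.780 and 0.486.

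The content of the punch moved with *Dlk1*. The 11 libraries that listed *Dlk1* at 0 had summed striatal markers of 2150 to 12289 TPM (median 9133), and the 37 others 249 to 4596 TPM (median 732). These are not groups of the study and no test was made. Among the 37, Pearson's r between *Dlk1* and the striatal sum was −0.40, and over all 48 libraries *Dlk1* had an r of 0.61 with the hypothalamic and subpallial sum after subtraction of group means. Over the same 48 libraries r was 0.65 with the astrocyte markers and −0.84 with the striatal markers. The values over 48 libraries include the 11 with *Dlk1* at 0. Under FLX, where WT had no library at 0, the highest striatal sum was 3429 TPM in WT and 11780 TPM in Brd1+/-, and the hypothalamic and subpallial list had a median difference of −2.85 against −0.06 for all genes, with 2 of 15 tested genes called, *Lhx5* and *Fezf1*, both lower, where 1.38% of all genes were called lower. Each kept its call in 8 of 16 fits that left out 1 library. None of the 12 striatal markers was at 0 in any library, and 14 of the 18 hypothalamic and subpallial markers were at 0 in some. The part of the dissection in the *Dlk1* values was not tested.

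**Figure D5:**
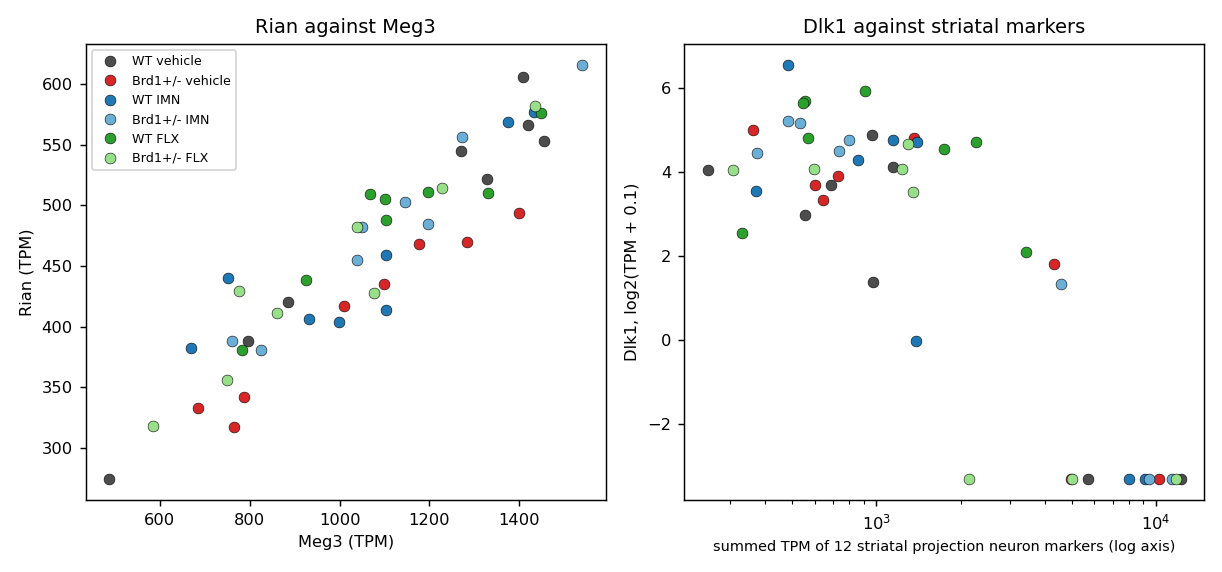
Left, *Rian* (y axis, TPM) against *Meg3* (x axis, TPM) for the 48 libraries coloured by group, which lie along a single line in all groups. Right, *Dlk1* on the log2(TPM + 0.1) scale (y axis) against the summed TPM of 12 striatal projection neuron markers (log x axis), where the 11 libraries with *Dlk1* at 0 lie at the bottom, at sums of at least 2150 TPM.

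*Rtl1* varied least of the 3 in absolute terms. Its means were 4.36 ± 1.32 TPM in Brd1+/- vehicle (SD, n = 8; lowest 2.66, median 4.09, highest 6.69), 3.93 ± 1.88 TPM in Brd1+/- IMN (0, 4.49, 6.18), 3.8 ± 1.3 TPM in WT vehicle (1.77, 3.89, 5.24), 3.59 ± 1.76 TPM in WT FLX (0, 3.72, 5.75), 3.25 ± 0.786 TPM in Brd1+/- FLX (2.26, 3.14, 4.56) and 3.02 ± 2.23 TPM in WT IMN (0, 3.16, 5.54). Neighbours in this order differed by less than their SDs. No difference was called, with limma adjusted p-values of at least 0.745 in the 6 comparisons free of the Brd1+/- vehicle libraries.

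*Dio3* was spread over orders of magnitude within groups. Brd1+/- FLX had the highest mean, 16.7 ± 17.6 TPM (SD, n = 8; lowest 0.602, median 11.2, highest 55.1), and Brd1+/- IMN the next, 13.3 ± 21.1 TPM (0.742, 4.22, 62.3), in which 1 library held the maximum. WT vehicle was at 8.32 ± 11.7 TPM (0.767, 5.05, 36.4), Brd1+/- vehicle at 5.20 ± 4.49 TPM (0.461, 4.72, 13.6), WT FLX at 3.74 ± 2.98 TPM (0.0963, 4.12, 8.35) and WT IMN at 2.96 ± 2.83 TPM (0.113, 2.17, 7.83). Under FLX the difference between Brd1+/- and WT was 2.13 ± 0.89 on the log2(TPM + 0.1) scale (SE, n = 8 per group), with an unadjusted p of 0.0295 and a limma adjusted p of 0.238, and it was not called. *Dio3os*, the antisense RNA that starts beside *Dio3*, had its highest mean in the same group, 2.23 ± 2.71 TPM (SD, n = 8), and followed *Dio3* over the 48 libraries with r = 0.67 after subtraction of group means. Its level is uncertain where the strand of reads was not used.

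Over the 6 free comparisons *Dlk1*, *Rtl1* and *Dio3* gave 18 tests and 0 calls in limma, 3 with an unadjusted p under 0.05. The 95% intervals reached from a ratio of 0.02 to 36.32 for *Dlk1*, 0.12 to 8.15 for *Rtl1* and 0.12 to 16.18 for *Dio3*, wider than for the noncoding members. For *Rtl1* the width came from the 4 libraries at 0: with these taken as missing, its intervals lay between ratios of 0.55 and 1.67 over the 6 comparisons, with SEs of 0.19 to 0.29 on the log2 scale and 0 calls (lowest limma adjusted p 0.436).

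The balance of both sides was summarised in each library as the mean log2(TPM + 0.1) of *Meg3*, *Rian* and *Mirg* minus that of *Dlk1*, *Rtl1* and *Dio3*. It was 6.44 ± 1.33 in WT vehicle, 6.24 ± 1.43 in Brd1+/- vehicle, 7.14 ± 1.77 in WT IMN, 6.34 ± 2.09 in Brd1+/- IMN, 6.15 ± 0.74 in WT FLX and 6.11 ± 1.82 in Brd1+/- FLX (SD, n = 8 each). The noncoding side was higher in all 48 libraries, from 4.12 to 10.25. All 6 group ranges overlapped, and libraries at 0 for *Dlk1* raised the value by construction.

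Within groups both sides varied in the same direction. *Meg3* had r = 0.62 with *Dlk1*, 0.51 with *Rtl1* and 0.42 with *Dio3*, and *Mirg* had 0.52, 0.51 and 0.20. These members share the library, its scaling and the punch.

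Genes tied to the functions of the members were taken from lists. The 14 genes beside the locus on the same chromosome, such as *Begain* and *Yy1*, gave 0 calls in the 11 comparisons. The 16 genes of imprint maintenance and silencing, such as *Zfp57* and *Trim28*, gave 0 calls as well. Of 14 other maternally expressed imprinted genes 11 were tested and 0 called. Of 23 other paternally expressed imprinted genes 4 were lower in Brd1+/- than in WT under FLX, where 1.38% of all genes were: *Usp29* (log2 difference −1.44 ± 0.31 SE, limma adjusted p = 0.0322), *Peg3* (−0.86 ± 0.20, 0.0443), a zinc finger protein of the same domain, *Peg13* (−0.62 ± 0.11, 0.0138), a noncoding RNA, and *Inpp5f* (−0.47 ± 0.11, 0.0496), a phosphoinositide phosphatase. The median of this list was −0.47 against −0.06 for all genes. When each of the 16 libraries was left out in turn, *Peg13* was called in all 16 fits, *Usp29* in 7, *Peg3* in 5 and *Inpp5f* in 3, with adjusted p-values of up to 0.0405, 0.0733, 0.101 and 0.113 in limma, and with the replicate block none of the 4 was called. In the same comparison the hypothalamic and subpallial markers had their median at −2.85, and the part of the dissection in the imprinted genes was not tested. In the other 5 comparisons free of the Brd1+/- vehicle libraries 0 of the 23 were called.

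DLK1 resembles Notch ligands, and of 19 genes of Notch signalling 1 was called under FLX, *Heyl*, a target gene of the pathway, which was lower in Brd1+/- (−1.75 ± 0.29 SE, limma adjusted p = 0.0113), with a list median of −0.21, where 1.38% of all genes were called lower. DIO3 acts on thyroid hormone, and of 17 tested genes of its handling and response 1 was lower in Brd1+/- under FLX. This was *Hr*, a thyroid hormone-responsive corepressor (−1.88 ± 0.37 SE, limma adjusted p = 0.0247), while the list median was 0.34 against −0.06 for all genes. In FLX against vehicle among WT mice 1 was higher, the potassium channel *Kcnj10* (1.23 ± 0.21 SE, limma adjusted p = 0.0251), which is also a gene of astrocytes. There the list median was −0.26 against 0.05 for all genes, so both called genes lay opposite to their list medians. With 1 library left out *Heyl* was called in 16 of 16 fits, *Hr* in 11 and *Kcnj10* in 6, and with the replicate block none of the 3 was called (limma adjusted p 0.0525, 0.0624 and 0.0667). In that last comparison 0.28% of all genes were called higher, among them 2 of the 12 astrocyte markers, *Gjb6* and *Acsbg1*. The part of the cell makeup in these calls was not tested.

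The genes outside the interval most like each long member over the 48 libraries, after subtraction of group means and among 19139 genes with a mean of at least 1 TPM, were ranked by Pearson's r. For *Meg3* they were *Snhg11* (r = 0.96), *Gm27000* (r = 0.96) and *Entpd6* (r = 0.92). For *Rian* they were *Snhg11* (r = 0.95), *Gm27000* (r = 0.93) and *Bicral* (r = 0.90). *Snhg11*, a host gene of small nucleolar RNAs, was at 1403 ± 337 TPM (SD, n = 48), the same order of level as *Meg3*. For *Mirg* they were *Gm44830* (r = 0.80), *Foxr2* (r = 0.77) and *Gm47279* (r = 0.76).

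For *Dlk1* they were *Tmem132c* (r = 0.91), *Btbd11* (r = 0.91) and *F2r* (r = 0.90), values that rest in part on the 11 libraries at 0. For *Dio3* they were *Cpe*, a peptide-processing enzyme, *Ptpra*, a receptor phosphatase, and *Ccdc71l* (r = 0.84 each). For *Rtl1* the highest r was 0.68, with *Rnase6*, followed by *Gm14246* and *Gm26910* (r = 0.67 each). *Meg3* and *Rian* shared 2 of their 3 genes, and no other pair of members shared any.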

How the data were processed

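Amygdala RNA was sequenced from 48 mice in 6 groups of 8. Per the labels and the study's methods, the authors trimmed reads with Trimmomatic after FastQC, aligned them to GRCm38 with HISAT2 2.1.0 and estimated gene levels with StringTie 1.3.4, and deposited TPM values, which keep no depth, so their precision rests on the 8 mice per group. Whether counting used strand is not given in the sources used here. The study's own comparisons used a model of read counts. Counts were not used here, so log2(TPM + 0.1) was tested with limma 3.58.1 (R 4.3.3), with a variance trend, on the groups compared only. Genes needed 0.1 TPM in at least 8 libraries, and p-values were adjusted by Benjamini-Hochberg over all genes tested and called under 0.05. Positions came from GENCODE M21 (GRCm38), in which 52489 of 52636 gene IDs were found. The script was tested on simulated data.

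The members and gene lists were chosen with earlier results of these data known. Named were all 8 members, the called interval genes with the largest differences and a mean of at least 1 TPM (up to 6 per comparison), called genes of the lists (up to 4 per list and comparison), and the 3 genes most like each member. Alternatives were other values added, filters, scalings and variance priors, 1 fit of all libraries, a replicate block, a term for the sample code range and leaving out each library. The series text also names other brain regions, which were not analysed here.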

Additional observations from a re-analysis of the deposited data

Results flagged for a closer look

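Within groups of 8, 8 of 46 member-by-group sets had a highest library further from the rest than Dixon's critical value of 0.526 allows. Chance marks about 1 in 20 sets of normally distributed values. TPM values are skewed and some sets hold many values of 0, so the count of 8 cannot show an excess. For Mir487b it was WT vehicle replicate 1, at 0.197 TPM with the other 7 at 0. For Gm27379 they were WT IMN replicate 2 at 2.9 TPM (next 1.31), Brd1+/- IMN replicate 6 at 0.208 TPM, WT FLX replicate 5 at 2.45 TPM (next 1.13) and Brd1+/- FLX replicate 1 at 2.6 TPM. In sets with 7 values of 0 any value above 0 is marked. For Dlk1 it was WT IMN replicate 4 at 94.7 TPM (next 27.3). For Dio3 they were WT vehicle replicate 5 at 36.4 TPM (next 9.25) and Brd1+/- IMN replicate 3 at 62.3 TPM (next 23).

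Interactions of genotype with drug were flagged for Mir487b and Gm27379, and nothing is read from them. On the log2(TPM + 0.1) scale the interaction of genotype with IMN was −6.60 for Mir487b and −5.59 for Gm27379, and that with FLX was −3.43 and −5.14. Both genes were chosen through the Brd1+/- vehicle libraries in these interactions, so the values are descriptions, and their sizes depend on the 0.1 added because most other libraries are at 0.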

How the results depend on the processing

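The count of 2 members called fell to 1 for Brd1+/- against WT vehicle with values of 0 taken as missing, for FLX against vehicle in Brd1+/- with 0.01 added, with a minimum of 1 TPM, with quantile normalization, with the replicate block and with the term for sample code range, and for genotype by FLX with 0.01 added and with 1 fit of all 48 libraries. It was 0 for FLX against vehicle in Brd1+/- with values of 0 taken as missing, an alternative chosen after seeing the data. Values of 0 were taken as missing only for genes with a median of at least 1 TPM in the fit. Gm27379 reached this median for vehicle genotype and Mir487b did not, so only Gm27379 lost its values of 0 there. Neither gene reached it for IMN against vehicle in Brd1+/- or in the interactions, so those calls were not put to this alternative. The cause of the other moves was not tested. The labels state no pairing of mice by replicate number. In none of 9 comparisons did every number's correlation exceed 0.1 (lowest −0.35, highest 0.65), a rule that a partial pairing could also fail. For genotype in IMN 5 of 8 numbers exceeded it. Leaving out each library kept 2 members called for vehicle genotype and 0 for genotype in IMN and FLX and for IMN and FLX in WT. The vehicle genotype comparison holds the libraries through which both called members were chosen, so that its count did not move is no support. The other counts of members called did not move by more than 1.5 times. Over all genes, leaving out each library gave 70 to 490 calls for genotype in FLX (46 with the replicate block) and 1 to 956 for FLX in WT (0 with it).

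Signs turned only among differences that were not called. With values of 0 taken as missing, Rtl1 gave −0.32 (genotype in FLX), 0.08 (IMN in WT), 0.15 (FLX in WT), 0.06 (IMN in Brd1+/-), −0.45 (FLX against IMN in Brd1+/-), −0.02 (genotype by IMN) and −0.54 (genotype by FLX), and Dlk1 0.32 (FLX in Brd1+/-). With the code range term, Dlk1 gave −0.17 (genotype in IMN) and −0.07 (genotype by IMN), and Mirg −0.01 (IMN in WT) and 0.07 (FLX in Brd1+/-). With median-ratio scaling, Meg3 and Rian gave −0.01 each (FLX in WT) and Mirg 0.03 (FLX in Brd1+/-). With 1 added, Rtl1 gave −0.06 (FLX against IMN in Brd1+/-) and −0.14 (genotype by FLX), and Dlk1 −0.04 (genotype by IMN).

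Leaving out each library, Dlk1 ran from −0.55 to 0.94 and Dio3 from −0.69 to 0.08 (vehicle genotype), Mirg from −0.20 to 0.00 and Dlk1 from −0.59 to 1.01 (genotype in IMN), Rtl1 from −0.32 to 0.52 (genotype in FLX), Meg3 from −0.23 to 0.01, Mirg from −0.10 to 0.08 and Dlk1 from −0.38 to 1.13 (IMN in WT), and Meg3 from −0.12 to 0.12, Rian from −0.06 to 0.10 and Rtl1 from −0.69 to 0.15 (FLX in WT). With no depth in TPM, no limit of detection could be given for values of 0.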
